A study of Mus musculus with 10 samples.

Results

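Genes of cholesterol synthesis, uptake, storage, efflux and oxidation were followed through the mouse spinal cord after injury. A list of 36 gene symbols was matched to the deposited array tables by a single gene symbol in the platform annotation, and the cluster with the highest mean over the 5 arrays stood for a gene. At the gene level 30 of the 36 passed a filter on low signals, among 11280 genes tested in all. Another 4 (Idi1, Fdps, Tm7sf2 and Soat1) were read only from exon-level probe sets, where 14378 genes had a value. The remaining members, Acat2 and Nr1h2, were measured at neither level here. By role, the list holds 18 synthesis enzymes, 5 genes of sterol sensing, 10 genes of uptake, storage and efflux, and 3 sterol hydroxylases.

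The arrays are Affymetrix whole-transcript arrays of total RNA from the cord at thoracic segment T10 of wild-type ICR mice, an outbred stock. Cords were taken after a sham operation or at 4 times after spinal cord injury (1 day, 3 days, 1 week, 3 weeks). The labels give every group an age of 4 weeks and give the sham group no time after surgery. They do not describe how the injury was made. RNA of 3 mice per group was mixed by equal mass, so each group is 1 pool on 1 array per level, with no replicate and no test, and the spread between mice cannot be seen.

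Cells make cholesterol from acetyl-CoA through mevalonate, farnesyl diphosphate, squalene and lanosterol. When membrane sterol is low, the chaperone Scap carries SREBP transcription factors to the Golgi, where they are released to switch on the synthesis genes, and Insig proteins hold them back when sterol is plentiful. Oxidised sterols activate LXR nuclear receptors, which switch on efflux genes such as Abca1 and Abcg1. In the cord the largest demand comes from oligodendrocytes, whose myelin membrane is rich in cholesterol, and phagocytes that take up myelin debris have to store or export its cholesterol.

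Signals are log2 values as deposited, and a difference is the log2 signal of an injured array minus that of sham unless another array is named. Rises and falls are differences of 2-fold or more, a value of 1 in log2 units. Exon-level values are given as the median ± SD over the kept probe sets of a gene, and this SD is the spread between probes, not between mice. Of all genes tested, 4.09% fell and 3.79% rose at 1 day, 9.57% fell and 5.93% rose at 3 days, 13.9% fell and 11.3% rose at 1 week, and 3.4% fell and 8.5% rose at 3 weeks. The median difference of all genes tested lay between -0.15 and 0.00. In sham, none of the 9 neuron, 14 myelin and 7 astrocyte genes measured was below the filter level. Skeletal muscle markers stood apart at 1 day and 3 days, when 7 of 7 measured had risen (median 4.44 and 3.00). One of them, Myl1, lay below the filter level in sham. With signals raised to that level, 7 of 7 had still risen at these 2 times, with medians of at least 4.20 and 2.99. At 1 week 4 of 7 had risen (median 1.18), against 11.3% of all genes. With signals raised to the filter level, the 1 week count was 3 of 7 (median 0.92). The part of skeletal muscle in the differences below was not tested.

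The synthesis enzymes fell as a group, and most were lowest at 1 week. Of the 14 measured at the gene level, 1 had fallen by 1 day and 11 by 3 days, and 13 were low at 1 week and again at 3 weeks, against 4.09%, 9.57%, 13.9% and 3.4% of all genes. None of the 14 rose at any time. Their median difference was -0.56 at 1 day, -1.25 at 3 days, then -1.99 at 1 week and -1.47 at 3 weeks, beside medians of all genes of -0.15, -0.12, -0.06 and 0.00. The median enzyme was thus 3.98-fold lower at 1 week than in sham and 2.78-fold lower at 3 weeks. At the exon level 17 enzymes were measured, and 2, 15, 16 and 16 of them had fallen at these times, against 5.54%, 11.8%, 15.6% and 3.65% of all genes. All 190 kept probe sets of these enzymes were below sham at 3 days and again at 1 week, where 63.4% and 56.9% of all probe sets were below sham. In RNA of whole tissue, fewer cells of a type and less RNA per cell cannot be told apart.

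**Figure D1:**
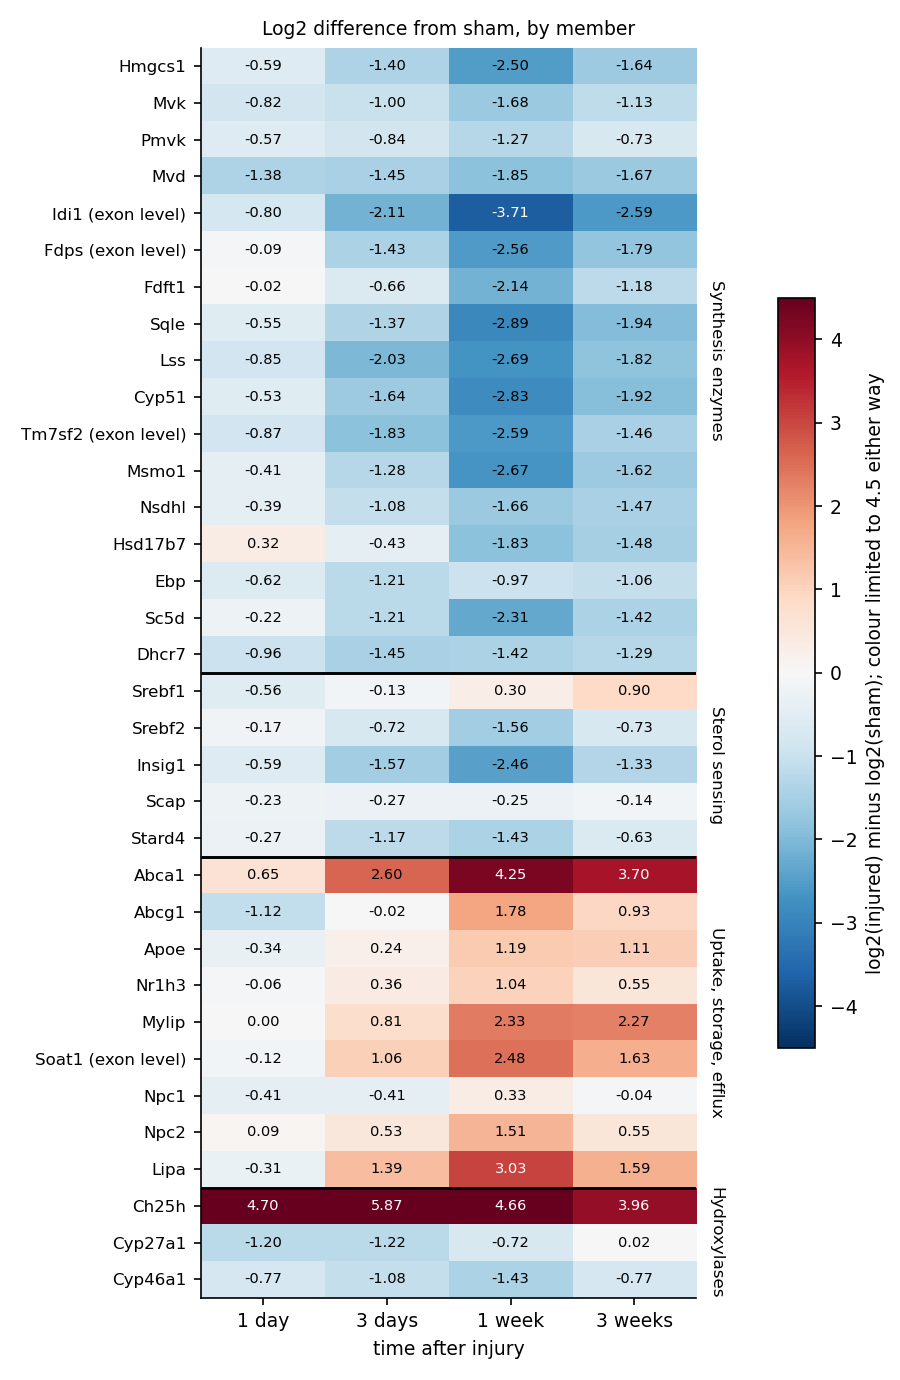
Log2 difference from sham for the 34 members with a value, at each of the 4 times after injury (columns), with members in rows by role and each cell's value printed in it. Values are of the gene-level cluster, or the exon-level median where marked. The 17 synthesis enzymes are below sham at 3 days, 1 week and 3 weeks, and Abca1, Mylip, Lipa and Soat1 are above it at those times.

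Most promoters of these enzymes hold the same short sequence element. RefSeq promoter windows of build GRCm38.p6, from 250 bases before to 50 after the annotated start, matched 30 of the 36 members. The CCAAT box, the letters CCAAT on either strand, is bound by NF-Y, a factor that acts together with SREBP at sterol-responsive promoters. It was present in 14 of the 15 synthesis enzymes with a window, with Acat2 the exception, against 42.7% of the genes tested and 37.4% of all windows. It was present in 3 of 4 sensing genes and in 4 of 8 genes of uptake, storage and efflux. The exact SREBP consensus TCACNCCAC, searched on both strands, was found in 1 of the 15 synthesis enzymes, Hmgcs1. It was present in 1.49% of the genes tested and in 1.24% of all windows. The LXR repeat, AGGTCA followed after 4 bases by AGGTCA, also searched on both strands, was found in no member. It was found in 0 of the 9052 tested genes with a window and in 0.0152% of all windows. An exact search this rare cannot set the members apart from other genes. These are exact matches of letters in a short window and not tests of binding. Sites that differ from a pattern by a letter are missed, so the lack of a match does not show that a site is absent.

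Windows are shown for Hmgcs1, which holds both elements, for Idi1, Lss and Cyp51, among the enzymes with the largest falls, and for Abca1, the efflux gene with the largest rise, which holds neither. They are read 5′ to 3′ on the gene's strand, and capitals mark the CCAAT box (ATTGG on the opposite strand) and, in Hmgcs1, also the SREBP consensus, which overlaps no CCAAT box there.
Hmgcs1 (chr13:119690101-119690400, plus strand): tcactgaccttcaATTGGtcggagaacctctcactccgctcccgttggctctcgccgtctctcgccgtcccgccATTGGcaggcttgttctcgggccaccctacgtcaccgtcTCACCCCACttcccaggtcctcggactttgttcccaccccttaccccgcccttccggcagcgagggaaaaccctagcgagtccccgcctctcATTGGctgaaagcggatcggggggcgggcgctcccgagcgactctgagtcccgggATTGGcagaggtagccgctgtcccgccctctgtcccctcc
Idi1 (chr13:8885356-8885655, plus strand): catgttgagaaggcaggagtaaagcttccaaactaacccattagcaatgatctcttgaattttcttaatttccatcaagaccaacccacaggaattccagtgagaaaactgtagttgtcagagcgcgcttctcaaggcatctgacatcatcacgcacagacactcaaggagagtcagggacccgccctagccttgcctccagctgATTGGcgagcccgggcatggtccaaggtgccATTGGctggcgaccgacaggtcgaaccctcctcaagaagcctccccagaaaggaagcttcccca
Lss (chr10:76531355-76531654, plus strand): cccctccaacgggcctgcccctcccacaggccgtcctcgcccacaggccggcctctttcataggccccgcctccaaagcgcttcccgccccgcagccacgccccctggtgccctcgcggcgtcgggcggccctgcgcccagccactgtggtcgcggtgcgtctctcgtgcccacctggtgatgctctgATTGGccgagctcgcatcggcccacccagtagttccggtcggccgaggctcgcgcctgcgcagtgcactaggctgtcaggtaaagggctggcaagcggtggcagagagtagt
Cyp51 (chr5:4104648-4104947, minus strand): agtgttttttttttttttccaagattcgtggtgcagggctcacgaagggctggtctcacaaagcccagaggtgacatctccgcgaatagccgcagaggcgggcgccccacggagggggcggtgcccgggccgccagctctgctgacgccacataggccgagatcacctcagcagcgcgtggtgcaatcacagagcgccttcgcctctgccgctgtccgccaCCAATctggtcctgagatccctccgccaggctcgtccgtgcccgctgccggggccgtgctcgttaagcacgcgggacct
Abca1 (chr4:53159846-53160145, minus strand): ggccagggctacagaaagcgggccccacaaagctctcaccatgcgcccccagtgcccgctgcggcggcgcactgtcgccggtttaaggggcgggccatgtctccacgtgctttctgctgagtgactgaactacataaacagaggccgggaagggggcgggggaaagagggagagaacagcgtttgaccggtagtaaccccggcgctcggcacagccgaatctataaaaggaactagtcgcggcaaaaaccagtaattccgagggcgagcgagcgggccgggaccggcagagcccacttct

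Among the enzymes that lead from acetyl-CoA to farnesyl diphosphate, Hmgcs1, the HMG-CoA synthase (transcript cluster 7005797), had log2 signals of 10.51 in sham, 9.92 at 1 day, 9.12 at 3 days, then 8.02 at 1 week and 8.88 at 3 weeks. It was 5.64-fold lower at 1 week than in sham (probe sets -2.61 ± 0.38, n = 12). Its signal dropped at each time up to 1 week and was higher again at 3 weeks, although it had not returned to the 1 day level. Mvk, mevalonate kinase, was at 7.46 in sham, 6.64 at 1 day, 6.46 at 3 days, then 5.79 at 1 week and 6.34 at 3 weeks, a difference of -1.68 at 1 week. Pmvk, the kinase after it, had a smaller fall of -1.27 at 1 week and stood at -0.73 at 3 weeks.

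Mvd, the decarboxylase that ends the mevalonate steps, was the only one of the 14 gene-level enzymes to have fallen by 1 day. Its signals were 7.50 in sham, 6.12 at 1 day, 6.05 at 3 days, then 5.65 at 1 week and 5.84 at 3 weeks. Most of its difference was therefore present at 1 day (-1.38, probe sets -1.22 ± 0.68, n = 13), and it stood at -1.85 at 1 week and -1.67 at 3 weeks. Idi1, the isomerase of isopentenyl diphosphate, had no single-symbol cluster, and its 6 probe sets had median signals of 8.54 in sham, 7.72 at 1 day, 6.39 at 3 days, then 4.67 at 1 week and 5.93 at 3 weeks. At 1 week 4 of its 6 probe sets lay below the exon-level filter of 4.85, so the measured median of -3.71 ± 0.45 is rough there. With signals raised to that filter level, Idi1 was at least 11.4-fold lower at 1 week than in sham. At 3 weeks no probe set lay below it, the median was -2.59 ± 0.57 (6.04-fold lower), and Idi1 ranked 1 from the lowest among the 14378 exon-level genes.

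Fdps, the farnesyl diphosphate synthase, differed between the levels. Its gene-level cluster lay below the filter level of 3.79 on all 5 arrays (2.16 at 1 week and 3.41 in sham), and it was left out there. Its 10 kept probe sets had a median signal of 8.40 in sham and a difference of -0.09 ± 0.32 at 1 day. This was followed by -1.43 ± 0.65 (3 days), -2.56 ± 1.05 (1 week) and -1.79 ± 0.83 (3 weeks).

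The 10 enzymes from squalene onward measured at the gene level had a median of -0.47 at 1 day and -2.22 at 1 week, beside -0.70 and -1.76 for 4 enzymes of the mevalonate steps, and the difference between these blocks was not tested. Fdft1, the squalene synthase, was at 9.92 in sham, 9.90 at 1 day, 9.26 at 3 days, then 7.78 at 1 week and 8.74 at 3 weeks. It was level with sham at 1 day and first passed 2-fold at 1 week (-2.14, probe sets -2.52 ± 0.38, n = 12). Sqle, the squalene epoxidase and a rate-limiting enzyme (cluster 6830761), was at 8.61 in sham, 8.06 at 1 day, 7.24 at 3 days, then 5.72 at 1 week and 6.67 at 3 weeks. Its fall of 7.39-fold at 1 week was the largest among the gene-level enzymes (-2.89, probe sets -2.88 ± 0.49, n = 14). Lss, which closes the sterol rings, was at 7.95 in sham, 7.10 at 1 day, 5.92 at 3 days, then 5.27 at 1 week and 6.14 at 3 weeks, a difference of -2.03 as early as 3 days and of -2.69 at 1 week. Cyp51, the lanosterol demethylase, was at 9.58 in sham, 9.05 at 1 day, 7.95 at 3 days, then 6.75 at 1 week and 7.66 at 3 weeks (probe sets at 1 week -2.78 ± 0.60, n = 13).

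The other enzymes that trim lanosterol to cholesterol fell by differing amounts. Msmo1, the methyl sterol oxidase, was at 10.00 in sham, 9.59 at 1 day, 8.71 at 3 days, then 7.33 at 1 week and 8.38 at 3 weeks, 6.35-fold lower at 1 week. Sc5d, a sterol desaturase, stood at -2.31 at 1 week, and the sterol dehydrogenase Nsdhl at -1.66 (probe sets -2.10 ± 0.84, n = 11). The sterol reductase Tm7sf2, whose cluster carries several symbols, had 12 probe sets with a median difference of -2.59 ± 0.87 at 1 week and -1.46 ± 0.69 at 3 weeks.

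A few enzymes differed in their gene-level time course. Hsd17b7, a ketoreductase, was at 8.03 in sham and 8.35 at 1 day, where 11 of its 12 probe sets were above sham, and then at 7.60 (3 days), 6.20 (1 week) and 6.55 (3 weeks). It was the single one of the 14 above sham at 1 day, by less than 2-fold, and was at -1.83 at 1 week. Ebp, a sterol isomerase, had signals of 8.31 in sham, 7.68 at 1 day, 7.09 at 3 days, then 7.34 at 1 week and 7.25 at 3 weeks. Dhcr7, which carries out a last step of the pathway, had signals of 8.61 in sham, 7.65 at 1 day, 7.16 at 3 days, then 7.19 at 1 week and 7.32 at 3 weeks. At the gene level both were lowest at 3 days, whereas the other 12 enzymes were lowest at 1 week. For Dhcr7 the 1 week signal was only 0.03 above that at 3 days. At the exon level the median signal of Ebp was lowest at 3 weeks (7.69, against 7.94 at 3 days and 7.89 at 1 week). Its exon-level median difference from sham was lowest at 3 days (-1.24, against -1.20 at 3 weeks). Ebp, at -0.97, was the enzyme that missed 2-fold at 1 week, and Pmvk the one that missed it at 3 weeks. For Dhcr7 the exon-level difference at 1 week (-2.02 ± 0.39, n = 9) was larger than the gene-level one (-1.42).

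**Figure D2:**
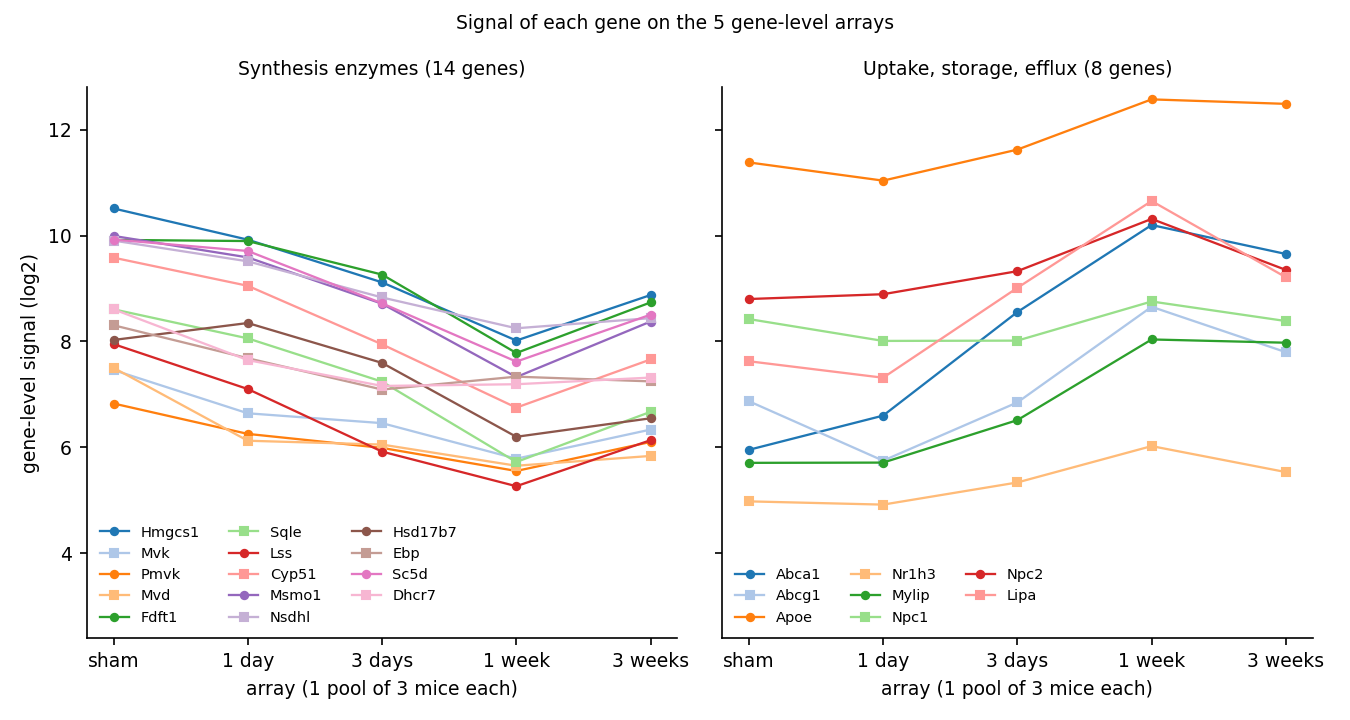
Gene-level log2 signals (vertical axis) on the 5 arrays from sham to 3 weeks (horizontal axis) for 14 synthesis enzymes and for 8 genes of uptake, storage and efflux, each point being 1 array of 1 pool. Of the 14 enzymes, 12 have their lowest point at 1 week, and the 8 other genes all have their highest point there.

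Step by step, the enzymes went down until 1 week. All 14 were lower at 3 days than at 1 day (median difference -0.72), with 2 past 2-fold (Lss at -1.18 and Cyp51 at -1.11), against 0.975% of all genes that fell in this step. From 3 days to 1 week the median difference was -0.89, 12 of 14 were lower and 7 fell, against 3.2% of all genes. Among the 11280 genes tested, 5556 were lower in the first of these steps and 4498 in the second. Enzyme signals were again higher at 3 weeks. Msmo1 alone passed 2-fold between 1 week and 3 weeks (1.05), and 1 of 14 is near the 7.06% of all genes that rose between these arrays. The median difference of the 14 was 0.71, beside 0.09 for all genes. Between these arrays 13 of 14 had a higher signal at 3 weeks, as had 6784 of the 11280 genes tested. Ebp stood at -0.09 between these arrays, the exception. Nsdhl, Mvd and Dhcr7 were closest to their 1 week signals among the other 13, with 0.19, 0.18 and 0.13. Levels at 3 weeks were near those at 3 days, with a median difference of -0.23 and 1 of 14 past 2-fold (Hsd17b7 at -1.05), against 1.4% of all genes. Relative to 1 day, 8 of 14 were at least 2-fold lower at 3 weeks, against 1.55% of all genes.

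Set among all genes tested, the enzymes stood nearest the bottom at 3 weeks. Of the 100 genes with the lowest differences, which are 0.887% of those tested, synthesis enzymes made up 0 at 1 day, 1 at 3 days (Lss), 2 at 1 week (Sqle and Cyp51) and 10 at 3 weeks. At 3 weeks Sqle ranked 4 from the lowest, Cyp51 5, Lss 7, Mvd 13, Hmgcs1 15 and Msmo1 18 among the 11280 genes. Their differences at 3 weeks were smaller than at 1 week, and so was the number of fallen genes overall (3.4% against 13.9%).

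The sensing genes went different ways. Insig1, which retains SREBP in the endoplasmic reticulum and is itself an SREBP target, had signals of 9.51 in sham, 8.91 at 1 day, 7.94 at 3 days, then 7.05 at 1 week and 8.18 at 3 weeks. It was 5.49-fold lower at 1 week, with a time course like that of the enzymes, and its 1.13 difference between 3 weeks and 1 week was past 2-fold. Srebf2, the SREBP that chiefly drives cholesterol synthesis, was at 9.31 in sham, 9.14 at 1 day, 8.59 at 3 days, then 7.75 at 1 week and 8.58 at 3 weeks and passed 2-fold at 1 week alone (-1.56, probe sets -1.56 ± 0.70, n = 12). Stard4, a sterol carrier and SREBP target, fell at 3 days (-1.17) and 1 week (-1.43) and was at -0.63 at 3 weeks. Of its 7 probe sets 6 lay below the exon-level filter at 1 week.

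Srebf1 and Scap did not pass 2-fold against sham at any of the 4 times. Srebf1, which drives fatty acid synthesis and is also an LXR target, was at 6.40 in sham, 5.84 at 1 day, 6.27 at 3 days, then 6.70 at 1 week and 7.30 at 3 weeks. Its difference at 3 weeks was 0.90, short of 2-fold, with 30 of 32 probe sets above sham and a range from -0.13 to 3.06 among them. Against earlier injured arrays it had risen by 3 weeks, with a difference of 1.46 from 1 day and 1.04 from 3 days, where 8.91% and 5.68% of all genes rose. Scap, the escort protein of the SREBPs, stayed between -0.14 and -0.27 at the 4 times (probe sets at 1 week -0.34 ± 0.25, n = 27).

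Genes of uptake, storage and efflux rose, most of them at 1 week. Of the 8 measured at the gene level, 0 had risen by 1 day and 2 by 3 days, while 7 were up at 1 week and 4 at 3 weeks, against 3.79%, 5.93%, 11.3% and 8.5% of all genes. Their median difference was -0.19, 0.44, 1.65 and 1.02 at these times, and all 8 had their highest signal at 1 week. In the step to 3 days 3 of them rose, against 2.91% of all genes, and in the step to 1 week 4 did, against 5.51%. At the exon level, with Soat1 added, 0, 3, 8 and 6 of 9 had risen, against 4.69%, 7.75%, 13.1% and 9.19% of all genes. At 1 week all 14 enzymes were below sham and all 8 of these genes above it. Of the 11280 genes tested, 6174 were below sham and 4316 above it. The enzymes lay between -2.89 and -0.97 and these genes between 0.33 and 4.25, while all genes tested ran from -4.35 to 8.22. The members of both groups were chosen with earlier results of these data known, so the gap between their ranges is a description and not a test.

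**Figure D3:**
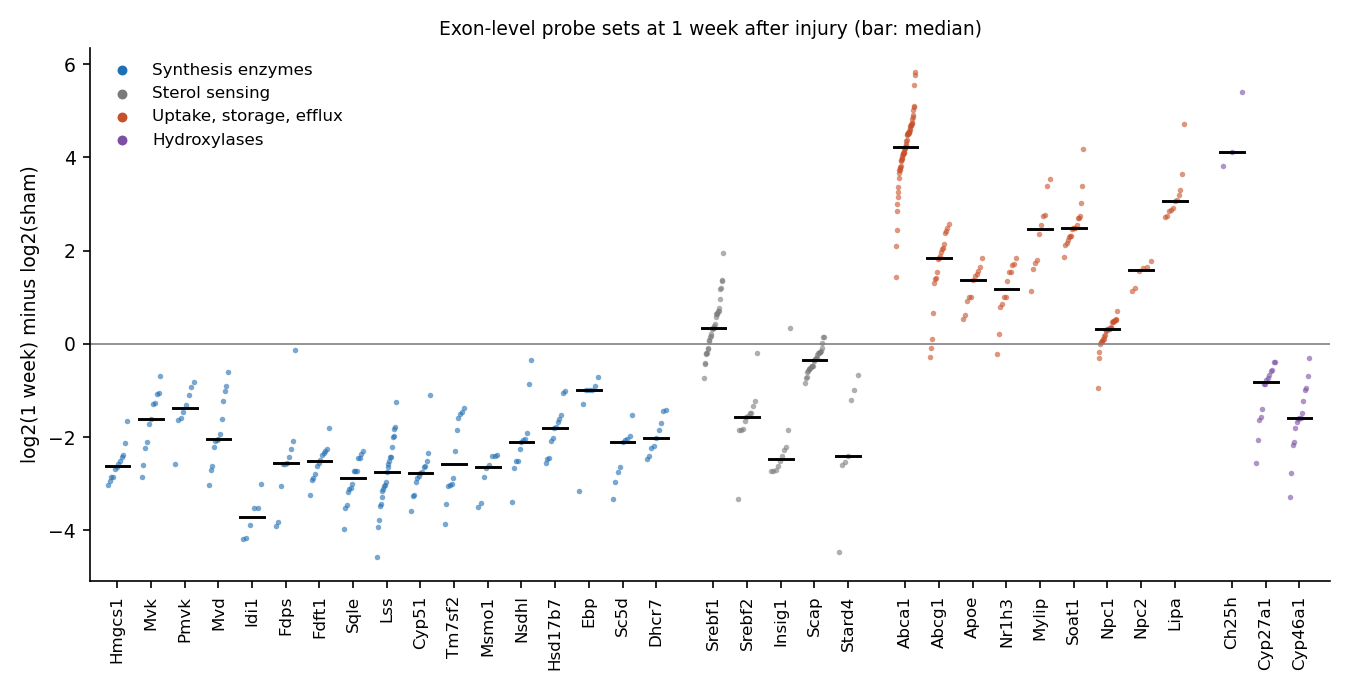
Log2 difference between 1 week and sham (vertical axis) for each kept exon-level probe set of the 34 members (points) with the median of each gene (bar), coloured by role. Each probe set of the synthesis enzymes lies below 0, and each of the 58 probe sets of Abca1 lies above it.

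The efflux transporter Abca1, which hands cholesterol to lipid-poor apolipoproteins (cluster 6921670), had the largest rise of this group. Its log2 signals were 5.95 in sham, 6.60 at 1 day, 8.56 at 3 days, then 10.20 at 1 week and 9.65 at 3 weeks. It was 19.0-fold higher at 1 week and 13.0-fold higher at 3 weeks than in sham (probe sets 4.23 ± 0.80 and 3.70 ± 0.79, n = 58), and all 58 probe sets were above sham from 3 days on. Abcg1, its partner for export to lipoprotein particles, was at 6.87 in sham, 5.75 at 1 day, 6.85 at 3 days, then 8.66 at 1 week and 7.80 at 3 weeks. It fell at 1 day (-1.12), was level with sham at 3 days and rose at 1 week (1.78). Apoe, the main apolipoprotein of the nervous system, was at 11.38 in sham, 11.04 at 1 day, 11.63 at 3 days, then 12.58 at 1 week and 12.49 at 3 weeks, higher by 1.19 at 1 week and 1.11 at 3 weeks.

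Of the regulators, Nr1h3, which encodes LXR-alpha, was at 4.98 in sham, 4.92 at 1 day, 5.34 at 3 days, then 6.02 at 1 week and 5.53 at 3 weeks, and passed 2-fold at 1 week alone (1.04, probe sets 1.18 ± 0.63, n = 12). Mylip, an LXR target whose product marks lipoprotein receptors for degradation and so lowers uptake, was at 5.71 in sham, 5.71 at 1 day, 6.51 at 3 days, then 8.04 at 1 week and 7.98 at 3 weeks. It was 5.03-fold higher at 1 week and 4.82-fold higher at 3 weeks, nearly the same level on both arrays. The differences between 3 weeks and 1 week were -0.06 for Mylip and -0.08 for Apoe. Set against 3 days instead, Abca1 and Mylip had risen by 3 weeks, 2 of the 8 genes, against 5.68% of all genes. Set against 1 day, 5 of the 8 had, against 8.91%.

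Genes that free and store the cholesterol of ingested lipid rose most at 1 week. Lipa, the acid lipase that splits cholesteryl esters in lysosomes, was at 7.63 in sham, 7.32 at 1 day, 9.01 at 3 days, then 10.66 at 1 week and 9.21 at 3 weeks. It was 8.16-fold higher at 1 week (probe sets 3.07 ± 0.58, n = 11) and then dropped by 1.44 between 1 week and 3 weeks, the single gene of this group to lose at least 2-fold in that step, against 3.48% of all genes. Soat1, which esterifies cholesterol for storage in droplets, had 18 probe sets with median signals of 6.98 in sham, 7.03 at 1 day, 8.09 at 3 days, then 9.50 at 1 week and 8.51 at 3 weeks, a difference of 2.48 ± 0.53 at 1 week.

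The pair of proteins that moves free cholesterol out of the lysosome did not move alike. Npc2, the soluble member, was at 8.80 in sham, 8.89 at 1 day, 9.33 at 3 days, then 10.32 at 1 week and 9.35 at 3 weeks, with a rise at 1 week (1.51, probe sets 1.59 ± 0.26, n = 6). Npc1, the membrane member, was at 8.42 in sham, 8.01 at 1 day, 8.02 at 3 days, then 8.76 at 1 week and 8.39 at 3 weeks and passed 2-fold at no time (0.33 at 1 week, probe sets 0.31 ± 0.32, n = 28). It was the single gene of the 8 without a rise at 1 week.

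The sterol hydroxylases had separate time courses. Ch25h, which makes an oxysterol and is known as an interferon-induced gene of macrophages, was at 2.49 in sham, below the filter level, and at 7.19 at 1 day, 8.37 at 3 days, then 7.15 at 1 week and 6.46 at 3 weeks. Taken against the filter level of 3.79 in place of its own sham signal, it was at least 10.6-fold higher at 1 day and at least 23.8-fold higher at 3 days. It was the only member to rise at 1 day, and its highest signal came at 3 days, before that of the efflux genes. Cyp27a1, the mitochondrial enzyme of the sterol side chain, fell at 1 day (-1.20) and 3 days (-1.22) and was at 0.02 at 3 weeks, with signals of 6.68 in sham, 5.48 at 1 day, 5.46 at 3 days, then 5.96 at 1 week and 6.70 at 3 weeks. Cyp46a1, a neuronal enzyme through which brain cholesterol is cleared, was at 6.44 in sham, 5.67 at 1 day, 5.37 at 3 days, then 5.02 at 1 week and 5.67 at 3 weeks, with falls at 3 days (-1.08) and 1 week (-1.43).

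Neighbouring pathways had medians closer to 0 than the sterol enzymes at 3 days, 1 week and 3 weeks. The non-sterol branch of the mevalonate pathway, which makes ubiquinone, dolichol and lipid anchors of proteins, had 7 of 10 listed genes measured, of which 0, 2, 1 and 1 had fallen at the 4 times in order. Its median was -0.71 at 3 days and -0.84 at 1 week, when the farnesyltransferase subunit Fntb was lowest (-1.30) and Pggt1b, a subunit of another prenyl transferase, highest (0.39). From 3 days to 1 week, however, 6 of these 7 genes had a higher signal and 1 a lower one (median difference 0.18). In that step 5889 of the 11280 genes tested were higher. At the exon level, with 9 genes measured, the median was -0.79 at 3 days and -0.65 at 1 week. Of 9 fatty acid synthesis and desaturation genes, 0, 6, 4 and 1 had fallen at these times, with the lowest median at 3 days (-1.01, against -0.83 at 1 week). At 3 days Elovl6, a fatty acid elongase, stood at -2.06 and Acly, which makes cytosolic acetyl-CoA, at -0.66. From 3 days to 1 week 6 of the 9 genes went lower and 3 went higher. Elovl6 stood at -2.57 and Acly at -1.38 at 1 week. The mean log2 signal of the 9 genes was 8.575 at 3 days and 8.485 at 1 week. At 3 weeks the medians were -1.47 for the sterol enzymes, -0.44 for the isoprenoid branch and -0.33 for fatty acid synthesis. Of all genes, 4.09%, 9.57%, 13.9% and 3.4% fell at the 4 times, and 1 of 7 isoprenoid genes at 1 week is near that share. The differences between these lists were not tested.

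Of the markers of cord cells, the myelin and neuron lists were also lowest at 1 week, and other lists were not. Of 14 myelin genes, 5 had fallen at 1 day, 5 at 3 days, then 12 at 1 week and 7 at 3 weeks, with medians of -0.37, -0.87, -1.58 and -0.97. At 1 week Fa2h, which makes myelin sphingolipids, stood at -2.74 and Mbp, myelin basic protein, at -0.53. Of 9 neuron markers, 1, 5, 9 and 4 had fallen, with medians of -0.68, -1.39, -2.71 and -0.98. Between 1 week and 3 weeks, the neuron markers were higher at 3 weeks by a median of 1.60, the myelin genes by 0.63 and the synthesis enzymes by 0.71. Relative to 1 day, 8 of 14 synthesis enzymes were at least 2-fold lower at 3 weeks. So were 1 of 14 myelin genes, 0 of 9 neuron markers and 1.55% of all genes. Astrocyte markers, 7 measured, had their lowest median at 3 days (-1.13), with -0.87 at 1 day, -0.53 at 1 week and 0.45 at 3 weeks, and 1 of 7 was low at 1 week and at 3 weeks. Oligodendrocyte precursor markers, 5 measured, had a median of 0.74 at 1 week, when 2 had risen and 1 had fallen. Of all genes, 4.09%, 9.57%, 13.9% and 3.4% fell at the 4 times, and 11.3% rose at 1 week. The 1 of 7 astrocyte markers low at 1 week is near the share of all genes. The part of cell loss in the fall of the enzymes was not tested.

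Macrophage markers rose with the uptake, storage and efflux genes. Of 9 measured, 9 had risen at 1 day, 3 days and 1 week and 8 at 3 weeks, and their mean log2 signal was 3.86 in sham, 6.89 at 1 day, 8.59 at 3 days, then 9.84 at 1 week and 7.81 at 3 weeks. In sham 4 of them (Msr1, Gpnmb, Cd36 and Atp6v0d2) lay below the filter level. With signals raised to that level, 8 of 9 had risen at 1 day and the median difference was at least 2.45 at 1 day and 5.69 at 1 week. The macrophage list was thus already up at 1 day, when none of the 8 uptake, storage and efflux genes had risen. Both lists were highest at 1 week. Of 14 other lipoprotein and lipid droplet genes, 4 had risen and 2 had fallen at 1 day, against 3.79% and 4.09% of all genes. The risen ones were Msr1 and Cd36, which are also in the macrophage list, and Lpl and Plin2. The lag at 1 day therefore holds for the 8 listed genes and not for every gene of lipid uptake and storage. Homeostatic microglia markers had a mean log2 signal of 6.55 in sham, 5.72 at 1 day and 7.84 at 1 week. Of the 7 measured, 5 had fallen and 1 had risen at 1 day, and 1 had fallen and 5 had risen at 1 week. Fibroblast markers, 7 measured, had a median difference of -0.15 at 1 day and 4.05 at 1 week. In time order 0, 6, 7 and 7 of them had risen, against 3.79%, 5.93%, 11.3% and 8.5% of all genes. The part of these cells in the rise was not tested.

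**Figure D4:**
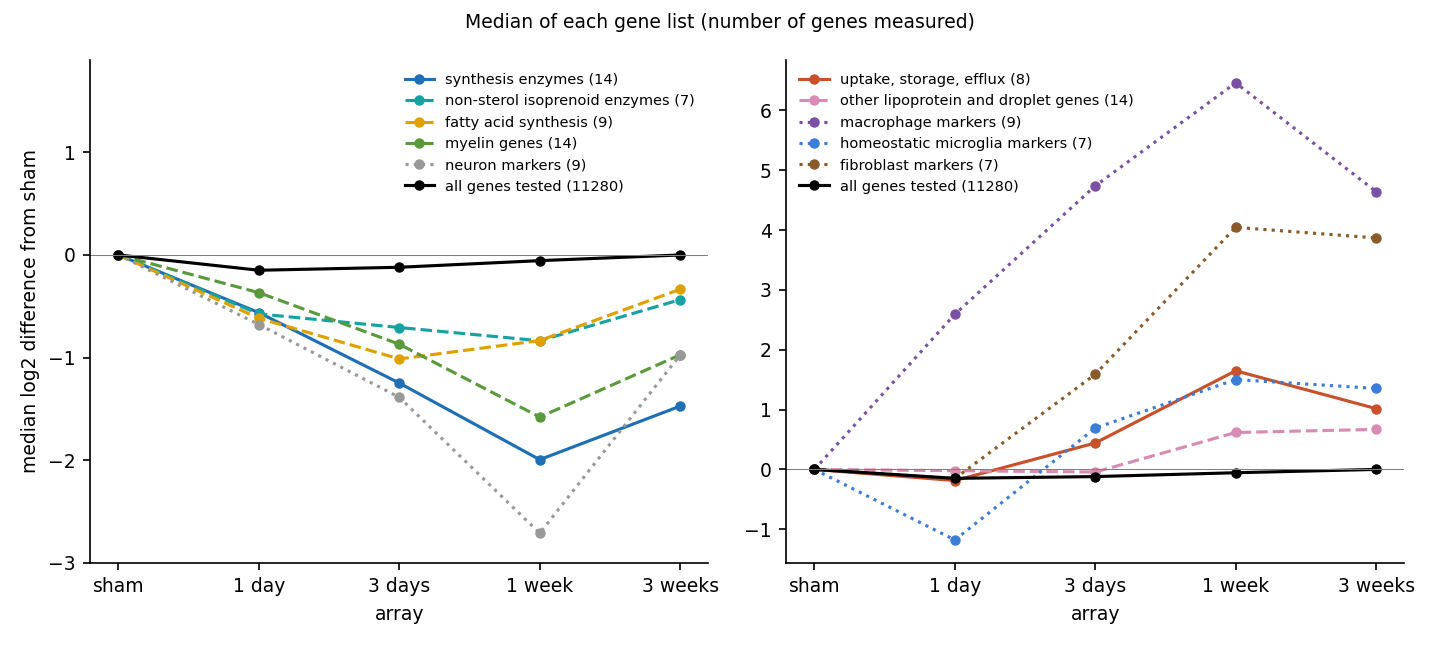
Median log2 difference from sham (vertical axis) on the 5 arrays (horizontal axis), with the number of genes in brackets, for the synthesis enzymes beside related pathways, myelin and neuron lists (left) and for the uptake, storage and efflux genes beside cell markers (right, on its own scale). At 3 weeks the synthesis enzymes are at -1.47, below the myelin (-0.97) and neuron (-0.98) lists, and the macrophage list, drawn with sham signals as measured, peaks at 6.46 at 1 week.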

How the data were processed

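Gene-level and exon-level tables were used, each with 1 log2 value per array for 5 pools. The deposited log2 values do not name their base, and base 2 was taken because the highest value read as a natural logarithm would pass 65535, the limit of a 16-bit scanner. Per the submitters' processing notes, GCOS and the mm8 build were used. How background was corrected, arrays were normalized and probes were summarised is not stated in the labels, headers or notes used here. Both levels were treated as summaries of the same 5 pools and were never averaged.

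Clusters and probe sets with 1 gene symbol were kept and symbols updated through a RefSeq table of GRCm38.p6. Sc4mol was read as Msmo1. Clusters were kept where the highest of their 5 values reached 3.79, the 40th percentile of gene-level values, and a probe set if it reached 4.85, that of exon-level values. Values were used as deposited, differences were computed with Python 3.11.15 and pandas 2.3.3, and the calculation was tested on simulated data. With 1 array per group there was no test, and a fold of 2 was the rule for a call, after the design text. Where a signal lay below the filter level, a bound was computed with signals raised to that level. Precision is limited by the number of arrays.

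The members, roles and other gene lists were chosen with earlier results of these data known. All members are described. From each other pathway list, the genes with the lowest and highest difference at the time of its largest median are named. Alternatives were centring, quantile normalization, other filters, the mean of clusters, the exon level and a 1.5-fold rule.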

Additional observations from a re-analysis of the deposited data

Results flagged for a closer look

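Abcg1 passed 2-fold in opposite directions at different times, at -1.12 at 1 day and 1.78 at 1 week relative to sham. All 19 of its probe sets were below sham at 1 day, where 66.3% of all probe sets were below sham. At 1 week 17 of 19 were above sham, against 43.0% of all probe sets. The fall at 1 day was -0.90 after quantile normalization and -0.82 at the exon level, both short of 2-fold. Both differences share the sham array, and the difference between the times was not tested.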

How the results depend on the processing

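No paired analysis was possible because each group is 1 array. Of 14 synthesis enzymes 1 fell at 1 day, and the count was 2 of 17 at the exon level and 6 with a 1.5-fold rule. Of the uptake, storage and efflux genes, the count that rose at 1 day was 0, and 1 with a 1.5-fold rule. With that rule 1 of 5 sensing genes at 1 day and 3 at 3 weeks were lower, against 0 and 1. No share of all genes past 1.5-fold is given here, so counts under that rule cannot be set against a background. Quantile normalization took the fallen hydroxylases to 0 at 1 day and 1 at 3 days, against 1 and 2 as deposited. Abcg1, the 1 uptake, storage and efflux gene that fell at 1 day, was short of 2-fold after it and at the exon level. Other counts of fallen enzymes and sensing genes and of risen uptake, storage and efflux genes, and the medians of these 3 groups, stayed within 1.5 times or within the spread of probe sets under the alternatives run, and no called member changed sign. Among single genes, the exon level moved 6 values by more than the spread of probe sets (Fdft1 and Dhcr7 at 3 days and later) and quantile normalization 2 (Npc2 and Lipa at 3 days). At 3 days the count of fallen enzymes was 8 after quantile normalization, against 11 as deposited. Quantile normalization took 7 member calls below 2-fold (Mvk, Nsdhl, Ebp and Cyp46a1 at 3 days, Abcg1 and Cyp27a1 at 1 day, Apoe at 3 weeks) and centring 2 (Mvk at 3 days, Apoe at 3 weeks). The exon level lost 1 (Abcg1 at 1 day) and gained 3 (Pmvk at 3 days, Dhcr7 at 1 day, Abcg1 at 3 weeks). These scalings moved the median of all genes by 0.14 at 1 day, 0.10 at 3 days and -0.11 at 3 weeks (quantile) and by -0.16 at 3 weeks (centring). Risen genes made up 48.1% of calls at 1 day, 38.3% at 3 days and 71.5% at 3 weeks as deposited. They made up 67.9% and 50.6% at 1 day and 3 days after quantile normalization, and 54.4% at 3 weeks after centring. The tables carry no detection call, so differences of genes near the filter level, such as Ch25h in sham and Idi1 at 1 week, are rough.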

Other observations

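Other genes of lipoprotein uptake and lipid droplets, 14 of 16 listed being measured, went both ways. The number that had risen was 4 at 1 day and 3 days, and 6 at both later times, and the number that had fallen was 2, 1, 1 and 0. Their gene-level median was 0.62 at 1 week and 0.67 at 3 weeks, and the exon-level median was 0.77 and 0.76. The mean log2 signal of the 14 genes was 8.64 at 1 week and 8.12 at 3 weeks. From 1 week to 3 weeks 7 had a lower signal and 6 a higher one. Msr1, a macrophage scavenger receptor, lay below the filter level in sham. With sham set to that level, it was higher by at least 5.69 at 1 week and 3.35 at 3 weeks. At 3 weeks Vldlr, a lipoprotein receptor, stood at -0.57. Vldlr had fallen at 1 week (-1.62). Of all genes, 3.79%, 5.93%, 11.3% and 8.5% rose and 4.09%, 9.57%, 13.9% and 3.4% fell at the 4 times.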
